A study of Mus musculus with 20 samples.

Results

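miR-9 and miR-129 are microRNAs best known from neurons, and they were followed here in small RNA libraries made from mouse heart tissue. The rule took 4 rows of a table of 1545 microRNAs by name: miR-9-5p, miR-9b-3p, miR-129-5p and miR-129b-3p. The rows were chosen by their measured levels, the RPM of these same hearts, so their levels are given as a description. Counts of these rows past a threshold are printed beside the share of all miRNAs past it, and nothing is read from them. The 4 rows hold only 2 separate measurements, because miR-9b-3p repeats the reads of miR-9-5p and miR-129b-3p repeats those of miR-129-5p. The study compared 4 groups of C57BL/6J mice: 5 sham hearts, 4 MI hearts (myocardial infarction), 4 CIH hearts (read as chronic intermittent hypoxia, the repeated drops in oxygen of sleep apnoea) and 7 MI+CIH hearts with both. No transgene or deletion is named for any group, and the labels used here give neither age, sex, the time after infarction nor the length of CIH. The tissue is labelled heart, without saying which part of it was taken relative to the infarct.

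A microRNA is cut from a hairpin precursor and guides silencing of messenger RNAs, which it recognises mainly through its seed, bases 2 to 8. miR-9 is abundant in neural progenitors and brain, where it restrains transcription factors of the progenitor state. miR-129 is enriched in brain as well and is known for tuning the excitability of neurons. The heart holds few neurons, chiefly in its ganglia and nerve fibres, beside muscle cells, fibroblasts, endothelium and blood. In bulk tissue, fewer cells of a type and less RNA per cell cannot be told apart.

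The mature sequences show how the b rows overlap the other rows. Each is written 5′ to 3′ with the seed in capitals, from RefSeq on GRCm38.p6, which held 8 of the 9 rows of these hairpins; miR-129-1-3p is named only. The miR-9 sequences come first, then those of miR-129.

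miR-9-5p: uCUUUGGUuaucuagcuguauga
miR-9b-3p: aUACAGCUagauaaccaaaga
miR-9-3p: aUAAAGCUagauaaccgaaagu
miR-9b-5p: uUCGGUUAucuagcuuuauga
miR-129-5p: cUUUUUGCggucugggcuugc
miR-129b-3p: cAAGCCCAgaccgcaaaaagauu
miR-129-2-3p: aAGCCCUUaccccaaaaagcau
miR-129b-5p: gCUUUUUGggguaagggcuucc

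miR-9b-3p is the reverse complement of miR-9-5p over 21 bases, from base 1 to base 21 of miR-9-5p. miR-129b-3p is complementary to bases 1 to 20 of miR-129-5p. The b hairpins lie on the opposite strand of the same loci, and whether the counting used strand is not given in the sources used here, so reads of the b rows and reads of their partners cannot be told apart. The seeds of the b rows differ from those of their partners, and they therefore name other target sets for the same reads. Across the 20 libraries miR-9-5p had 25106 reads and miR-9b-3p 25043, and the rows differed by 0 to 14 reads in a library, at most 0.672%. miR-129-5p had 1893 reads and miR-129b-3p 1880, equal in 13 of 20 libraries and at most 2.38% apart in the others. The opposite arms are complementary too, over 19 bases for miR-9-3p and miR-9b-5p and 20 for miR-129-2-3p and miR-129b-5p. Their rows did not repeat, with 199 against 14 reads and 121 against 30 reads. Why the b rows of the members repeat their partners was not tested. All further values are given for miR-9-5p and miR-129-5p and stand for the repeats too.

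The hairpins below show where the arms sit, with the 5p arm in the first run of capitals and the 3p arm in the second. Mir9-2 yields miR-9-5p and miR-9-3p, and Mir129-2 yields miR-129-5p and miR-129-2-3p.

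Mir9-2: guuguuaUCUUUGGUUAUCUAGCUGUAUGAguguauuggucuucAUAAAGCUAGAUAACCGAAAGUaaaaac
Mir129-2: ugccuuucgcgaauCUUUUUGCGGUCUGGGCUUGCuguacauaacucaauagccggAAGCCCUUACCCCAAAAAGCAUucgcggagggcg

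The same miR-9-5p is encoded 3 times in the mouse genome (GRCm38, the build mm10 of the submitters' processing notes). Mir9-1 lies at chr3:88215598-88215686 on the plus strand, in an intron of the long noncoding RNA Gm3764. Mir9-2 lies at chr13:83738814-83738885 on the plus strand, in an exon of at least 1 transcript of C130071C03Rik. Mir9-3 lies at chr7:79505264-79505353 on the plus strand, in an intron of its host Mir9-3hg. miR-129-5p has 2 loci: Mir129-1 at chr6:29022619-29022691 on the plus strand, in an exon of at least 1 transcript of Gm3294, and Mir129-2 at chr2:94241364-94241453 on the minus strand, in an intron of Mir670hg. Mir129b lies across Mir129-2 on the plus strand, at chr2:94241378-94241442. Reads of the mature miRNA cannot be divided among its loci.

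Values are RPM, the reads of a miRNA per 1000000 reads of its library in the table. The libraries held 1991323 to 18138415 reads, so that 1 read was worth 0.0551 to 0.502 RPM. The libraries fell into 3 sets that the groups explain only in part, found by clustering on the other tested miRNAs. Every sham and CIH heart was in set A, which also took MI 2 and, of the hearts with both, MI+CIH 1. Set B was made up of 2 infarct hearts, MI 1 and MI 3, together with MI+CIH 2 to 5. The remaining 3 libraries, MI 4 with MI+CIH 6 and 7, were set C. No sham or CIH heart was in set B or C, so set and infarction cannot be fully told apart. Profiles of the same set correlated at r = 0.909 to 0.9945 over 73 pairs and those of different sets at 0.7114 to 0.933 over 117 pairs. Whether the sets are a batch is not stated, and within MI and MI+CIH they are given beside each result. Sham 1 stood apart from its group: miR-21a-5p, a miRNA of injured heart chosen for this check after its values were seen, was at 100570 RPM against 17878 to 28616 RPM in the other sham hearts, and MI 2 was at 17547 RPM. The labels of sham 1 and MI 2 may be exchanged, which the labels cannot settle, so the libraries are used as labelled and values without both are given for the comparisons of MI with sham. The heart label held up: miR-1a-3p, which is made in heart and skeletal muscle, came 1st of the 360 miRNAs tested with a mean of 219585 RPM. The p-values below measure the spread between these hearts, 1 library each.

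miR-9-5p was readily detected in every heart, with 538 to 2481 reads a library, and ranked 102nd of 360 by mean level. In sham hearts 1 to 5 it stood at 125, 105, 135, 140 and 128.9 RPM. The 4 CIH hearts stood at 116, 96.6, 98.8 and 120 RPM. These 9 hearts covered a narrow span, and the sham and CIH ranges overlapped. In MI hearts 1 to 4 it stood at 263, 128.9, 732 and 106 RPM. The 7 MI+CIH hearts ran from 58.3 RPM in MI+CIH 7 over a median of 193 RPM to 271 RPM in MI+CIH 4. MI 3 was the highest library of all, with a 95% Poisson interval of 704 to 762 RPM that covers counting error only. The MI hearts thus lay within the sham range or above it, and the MI+CIH hearts below it or above it.

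By group the means fell in the order MI, MI+CIH, sham and CIH: 307 ± 292 (SD, n = 4), 164 ± 89.6 (n = 7), 127 ± 13.6 (n = 5) and 108 ± 11.7 RPM (n = 4). The ranges of all neighbours in that order overlapped, although the sham and CIH means lay farther apart than the SD of either group. The MI mean rested on MI 3, and without it was 166 RPM. The larger step was between sets. Set B averaged 321 ± 204 RPM (n = 6, from 193 to 732), set A 116 ± 17.96 RPM (n = 11, from 83.4 to 140) and set C 81.4 ± 23.7 RPM (n = 3, from 58.3 to 106). The set B mean was 2.76 times that of set A, and every set B heart was above every other heart. Of the 356 other tested miRNAs, 39% also had every set B library above all others and 2.25% had every set B library below; the sets were built on 349 of these 356, which leave out the neural list used further on. Without set B the MI mean was 117 RPM (n = 2) and the MI+CIH mean 73.9 RPM (n = 3), both under the sham mean.

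miR-129-5p was far scarcer and rested on 30 to 226 reads a library, ranking 225th of 360. Sham hearts 1 to 5 had 5.66, 7.29, 2.93, 6.67 and 4.69 RPM. CIH hearts 1 to 4 had 4.19, 2.75, 7.74 and 3.54 RPM. The 2 groups covered the same low span, with counting intervals that overlapped for some pairs of hearts and not for others, such as 1.98 to 4.19 RPM in sham 3 and 6.13 to 9.63 RPM in CIH 3. MI hearts 1 to 4 had 23.1, 3.797, 63.8 and 5.90 RPM. The 7 MI+CIH hearts ran from 2.96 RPM in MI+CIH 7 over a median of 23.6 RPM to 85.9 RPM in MI+CIH 4. Of the infarct groups, 6 hearts stood well above the sham range and the other 5 lay within it.

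The group means of miR-129-5p ran in another order from those of miR-9-5p: MI+CIH 33.6 ± 34.8 RPM (n = 7), MI 24.1 ± 27.8 (n = 4), sham 5.45 ± 1.72 (n = 5) and CIH 4.56 ± 2.20 (n = 4). The ranges of all neighbours overlapped, and the MI mean was 10.9 RPM without MI 3. The 6 raised hearts were again those of set B, at 51.4 ± 27.8 RPM (from 23.1 to 85.9), against 4.97 ± 1.72 RPM in set A (from 2.75 to 7.74) and 4.79 ± 1.60 RPM in set C. The set B mean was 10.3 times that of set A, and the lowest set B heart stood at 2.99 times the highest other heart. Without set B the MI and MI+CIH means were 4.85 and 4.64 RPM, near the sham mean.

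**Figure D1:**
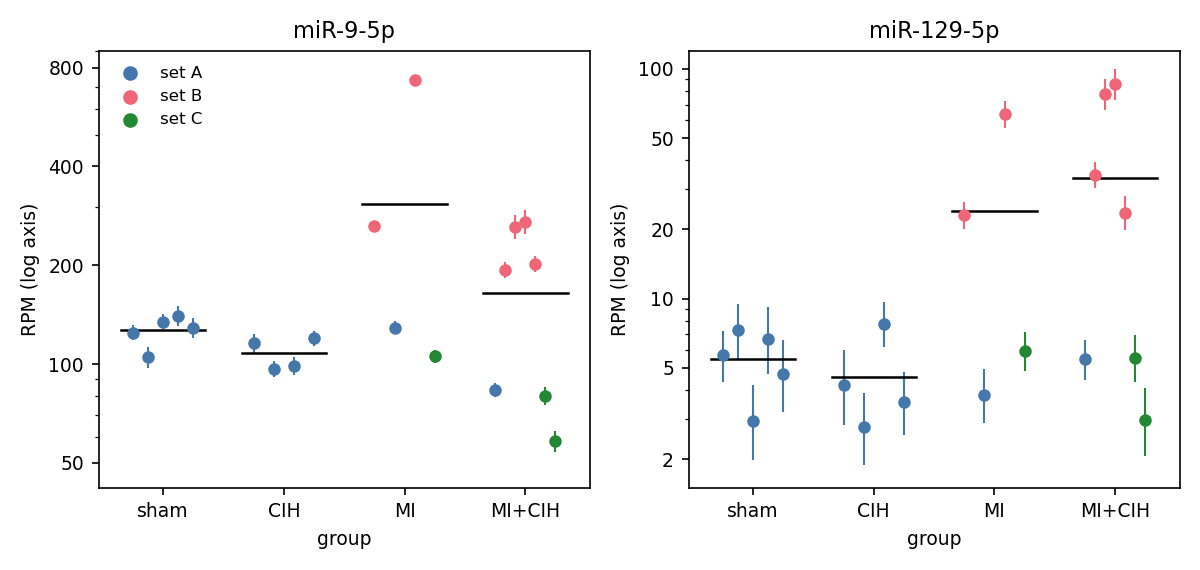
miR-9-5p (left) and miR-129-5p (right) in each heart, in RPM on log axes, by group; colours mark the library sets, bars the 95% Poisson counting interval and black lines group means. The 6 set B hearts (MI 1, MI 3 and MI+CIH 2 to 5) lie above all others for both miRNAs, and MI 3 is the highest for miR-9-5p at 732 RPM.

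RPM shares a fixed total among all miRNAs, and the large share of a few muscle miRNAs differed between sets. The heart muscle list of 5 miRNAs, led by miR-1a-3p, summed to 88429 to 184650 RPM in set B, 183400 to 317720 in set A and 241480 to 295420 in set C. The list did not move as 1 block: miR-1a-3p carried most of the sum, while miR-133a-3p averaged 16261 RPM in set B, 2771 in set A and 6019 in set C. The leukocyte list of 5 summed to 1209 to 1930 RPM in set B, to 207 to 652 RPM in the 11 hearts of set A and to 325 to 640 RPM in set C. The erythroid list of 4 summed to 5081 to 15227 RPM in set B, 579 to 3984 in set A and 2413 to 3076 in set C. No miRNA of these lists was at 0 throughout a set. Their part in the levels of miR-9-5p and miR-129-5p was not tested.

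Scaling each library by the median of its ratios to a mean profile, as DESeq2 does, changed the order of the hearts for miR-9-5p. Set A libraries had factors of 0.485 to 0.846, set B libraries 1.82 to 2.77 and set C libraries 1.001 to 1.22. Scaled miR-9-5p averaged 193 RPM in set A, 150 in set B and 73.1 in set C, and set B no longer stood above the rest. Scaled group means were 197 ± 38.1 in sham (n = 5), 201 ± 21.4 in CIH (n = 4), 211 ± 131 in MI (n = 4) and 86.6 ± 32.6 in MI+CIH (n = 7). All 7 MI+CIH hearts, from 48.1 to 149, were then below all 9 sham and CIH hearts, from 151 to 246. Among the 356 other tested miRNAs, 2.53% showed this complete separation. In plain RPM only 3 of the 7 MI+CIH hearts were below every sham and CIH heart. With edgeR's TMM factors the MI+CIH hearts lay at 49.2 to 116 and the sham and CIH hearts at 174 to 245, a separation that 3.93% of the others showed.

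miR-129-5p kept its higher mean in set B after the same scaling. It averaged 8.13 ± 3.19 in set A, 23.6 ± 15.4 in set B and 4.28 ± 1.74 in set C. The sets overlapped, with set B running from 8.51 to 47.1 and set A up to 15.9. Of the other tested miRNAs, 11% still had all set B libraries above all others after scaling. Scaled group means were 8.28 ± 2.44 in sham, 8.69 ± 4.92 in CIH, 14.2 ± 13.2 in MI and 15.9 ± 16.3 in MI+CIH, all overlapping. The share of miR-129-5p relative to miR-9-5p needs no scaling between libraries. In set A it was 2.18% to 7.83%, in set C 5.07% to 6.89% and in set B 8.71% to 31.7%. The gap between CIH 3 at 7.83%, on 80 reads of miR-129-5p, and MI 3 at 8.71% is small beside the counting error of CIH 3. How many other miRNAs have their ratio to miR-9-5p highest in set B was not counted.

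**Figure D2:**
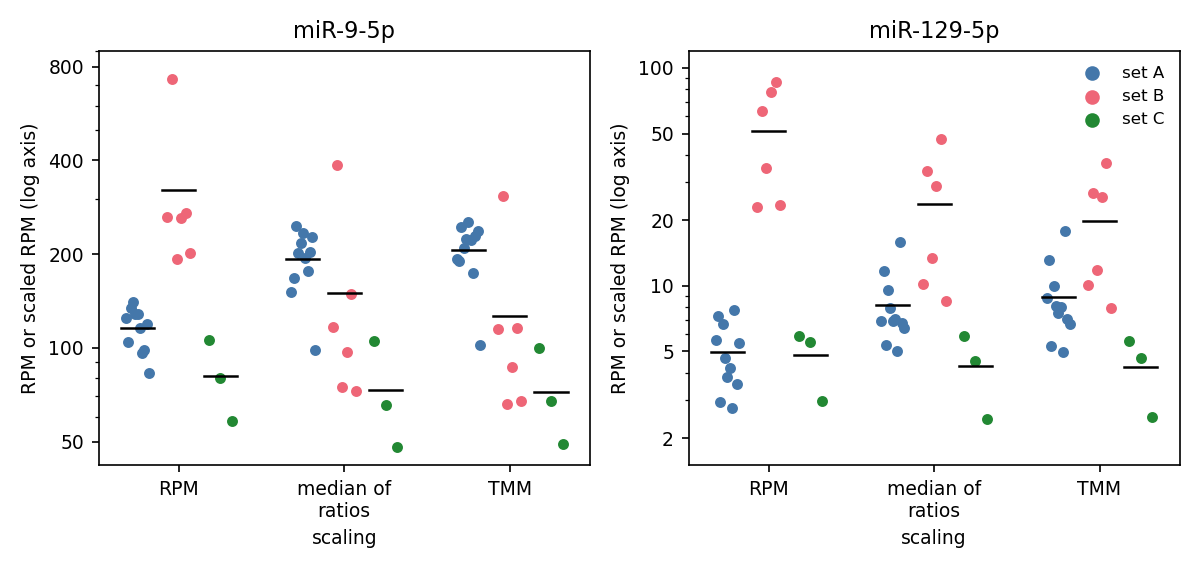
Each heart's miR-9-5p (left) and miR-129-5p (right) as RPM and after median-of-ratios or TMM scaling, on log axes, by set; black lines are set means. Set B lies highest in RPM for both; after scaling, the mean of miR-9-5p is higher in set A (193) than in set B (150), while that of miR-129-5p remains higher in set B (23.6 against 8.13).

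The same contrast can be read within a set, where MI and MI+CIH hearts share the shift. miR-9-5p was lower in the single MI+CIH heart of set A, at 83.4 RPM, than in its MI heart, at 128.9 RPM. In set B the 4 MI+CIH hearts averaged 232 ± 40.2 RPM and the MI hearts had 263 and 732 RPM. In set C the 2 MI+CIH hearts had 80.1 and 58.3 RPM and the MI heart 106 RPM. Of the 7 MI+CIH hearts 6 were below every MI heart of their own set and 1 was between; among the other tested miRNAs, 2.53% had at least 6 of 7 below. miR-129-5p showed no such order, with 2 below, 3 above and 2 between. Within set A the miR-9-5p of MI 2 and MI+CIH 1 can be set beside all sham and CIH hearts: MI 2 lay inside their range and MI+CIH 1 was the lowest library of the set.

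Over all 20 hearts limma on log2(RPM + 1) gave the following differences for the 2 miRNAs, as description. MI minus sham was 0.84 (SE 0.56) for miR-9-5p, and -0.084 after median-of-ratios scaling. For MI+CIH minus sham it was 0.16 (SE 0.49), -1.23 after scaling and -0.67 with set as a term. MI+CIH minus MI was -0.68 (SE 0.52), and it stayed negative after scaling (-1.15) and with set as a term (-0.79). For MI+CIH minus CIH it was 0.39 (SE 0.52), -1.28 after scaling and -0.44 with set as a term. CIH minus sham was -0.23 (SE 0.56) in RPM and 0.043 after scaling. Without MI 3, MI minus sham was 0.28 and MI+CIH minus MI was -0.12. Without sham 1 and MI 2, MI minus sham was 1.11 and MI+CIH minus MI was -0.95. The comparisons that share the sham, CIH or MI+CIH hearts are not independent of each other. With set as a term, differences from sham and CIH rest on MI 2 and MI+CIH 1, the only infarct hearts of set A.

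For miR-129-5p, MI minus sham was 1.27 (SE 0.86), 0.42 after scaling and -0.24 with set as a term. MI+CIH minus sham was 1.63 (SE 0.75), 0.36 after scaling and -0.097 with set as a term. MI+CIH minus CIH was 1.87 (SE 0.80), 0.37 after scaling and 0.15 with set as a term. These 3 differences were smaller in size after scaling and with set as a term. With set as a term they rest on MI 2, whose label may be exchanged, and MI+CIH 1, so set and infarction are not separated. Without sham 1 and MI 2, MI minus sham was 1.85, and without MI 3 it was 0.57. MI+CIH minus MI was 0.36 (SE 0.80), -0.062 after scaling, -0.20 without MI 2 and 1.06 without MI 3, and CIH minus sham was -0.24 (SE 0.86). The interaction is the effect of CIH in infarcted hearts minus that in sham hearts. It was -0.45 (SE 0.77) for miR-9-5p, -1.19 after scaling and 0.11 without MI 3. For miR-129-5p it was 0.60 (SE 1.17), and -0.048 after scaling.

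These values sit on a shift of all miRNAs. The median difference over the 360 tested was 0.94 for MI minus sham, 1.39 for MI+CIH minus sham and 1.51 for MI+CIH minus CIH, and it was 0.13, 0.12 and 0.075 after median-of-ratios scaling. Relative to that median, miR-9-5p was -0.10, -1.24 and -1.12 and miR-129-5p 0.33, 0.23 and 0.36. At a Benjamini-Hochberg adjusted p under 0.05, limma called 0 of the 4 rows in every contrast. The share of all tested miRNAs called was 56.7% in MI+CIH against sham, 56.9% in MI+CIH against CIH and 0% in MI against sham, CIH against sham, MI+CIH against MI and the interaction. For MI against sham the count of all miRNAs called was 0 with every heart, 113 without MI 2, 31 without MI+CIH 1 and 114 without both sham 1 and MI 2. For MI+CIH against MI it was 3 without MI+CIH 1 and 1 without MI 3. With all hearts, in those last 4 contrasts 101, 1, 17 and 14 miRNAs had an unadjusted p under 0.05 in limma, edgeR called 0 in each, and DESeq2 called 39, 1, 0 and 0. edgeR and DESeq2, run on the reads recovered from the RPM steps, each called 2 of the 4 rows lower in MI+CIH than in sham and than in CIH. They were the miR-9 rows, which are the same reads; edgeR called 23.6% and 20.8% of all tested miRNAs there, 9.17% and 10.3% lower, and DESeq2 40.6% and 36.9%, with 11.4% lower in both. Limma itself called the 2 miR-9 rows lower in these contrasts after median-of-ratios scaling, where it called 31.1% and 26.9% of all, and with TMM, where it called 31.7% and 25%. Without set B it called them lower against sham only, with 34.7% of all called. The 2 miR-129 rows were called higher against CIH without MI 2, with 59.7% of all called. Nothing is read from these counts, since the rows were chosen with their levels known.

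**Figure D3:**
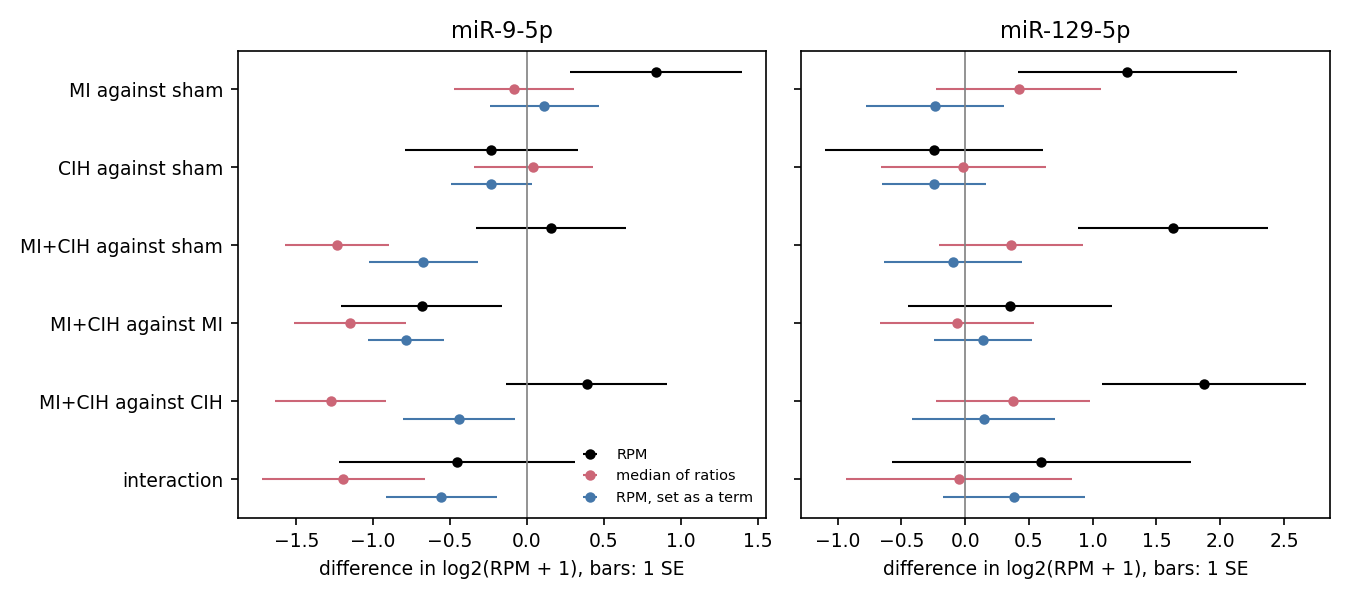
Differences in log2(RPM + 1) of miR-9-5p (left) and miR-129-5p (right) in 6 contrasts, with bars of 1 SE, from limma on RPM, after median-of-ratios scaling and with the library set as a term. For miR-9-5p the difference of MI+CIH minus sham is 0.16 in RPM and -1.23 after scaling; for miR-129-5p, MI+CIH minus CIH is 1.87 in RPM and 0.15 when the set is a term.

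The opposite arms of these hairpins were not used in choosing the rows, and all of them fell below the filter of at least 5 RPM in at least 4 libraries. miR-9-3p, which in other tissues is itself a functional strand, had 0 to 41 reads a library. It averaged 0.625 ± 0.257 RPM in sham (n = 5), 0.640 ± 0.316 in CIH (n = 4), 2.35 ± 2.30 in MI (n = 4) and 0.662 ± 0.905 in MI+CIH (n = 7). The MI mean was 1.26 RPM without MI 3 and the MI+CIH mean 0.395 RPM without MI+CIH 6. Its highest values were 5.61 RPM in MI 3, the heart with most miR-9-5p, and 2.27 RPM in MI+CIH 6. It was at 0 in MI+CIH 2, 3, 4 and 5. With no filter, over 1416 miRNAs, limma's adjusted p for miR-9-3p was at least 0.440 in all 6 contrasts.

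Set beside its own 5p arm, miR-9-3p set apart set C in a way the level of miR-9-5p did not, while sets A and B overlapped. Set A hearts had 2.50 to 12.6 reads of miR-9-3p per 1000 reads of miR-9-5p, pooled 6.77 (88 of 12998 reads). Set C hearts had 21.4, 28.3 and 22.5 per 1000, pooled 23.6. Every set C heart was above every other heart; among 81 other hairpins with both arms measured, 3.70% had all set C ratios above the rest and 21% had them all above or all below. In set B, MI 1 and MI 3 had 2.07 and 7.66 per 1000. The 4 MI+CIH hearts of set B had no read of miR-9-3p beside 3531 reads of miR-9-5p. Pooled over these hearts, that allows up to 0.850 per 1000. Heart by heart, a count of 0 allows up to 2.38, 5.58, 5.56 and 2.52 per 1000 in MI+CIH 2 to 5. Except in MI+CIH 2 these limits reach into the range of set A, so single hearts are not clearly below it. A ratio of arms within a library does not depend on scaling between libraries.

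miR-129 has a distinct 3p arm for each hairpin, miR-129-1-3p and miR-129-2-3p. miR-129-1-3p had 0 to 11 reads and miR-129-2-3p 0 to 25 reads a library, so their levels carry wide counting errors. miR-129-2-3p was at 1.85 and 1.18 RPM in MI 1 and MI 3, and at 3.06, 12.2, 3.52 and 1.87 RPM in MI+CIH 2 to 5. In the 9 sham and CIH hearts it was at most 0.675 RPM. In RPM it was higher in all 7 MI+CIH hearts than in every MI heart of its own set. Of the other tested miRNAs, which unlike it passed the filter, 4.49% showed this. In sets A and C that order rests on 1 to 8 reads a heart. In set B, MI+CIH 5 at 1.869 RPM (11 reads) and MI 1 at 1.853 RPM (17 reads) were nearly equal. Their counting intervals overlapped, at 0.933 to 3.34 and 1.08 to 2.97 RPM. With median-of-ratios factors of 2.77 in MI+CIH 5 and 2.26 in MI 1, the order of these 2 hearts reverses. With no filter, limma's adjusted p for miR-129-2-3p was 0.0640 for MI+CIH against CIH, with a difference of 1.44 (SE 0.50), and 0.112 for MI+CIH against sham, with 1.16 (SE 0.47). For miR-129-1-3p the adjusted p was 0.115 and 0.132 in the same contrasts, and none of these passed 0.05. Together the 3p arms made up 5.78% of the miR-129-5p reads in set A, 11.8% in set B and 8.80% in set C, pooled. In RPM both arms of miR-129 were thus highest in the same 6 hearts, an order that 39% of the other tested miRNAs showed. Its lowest values rest on 3 reads of miR-129-1-3p in MI+CIH 5 and 4 of miR-129-2-3p in MI 3. After scaling it holds for neither 3p arm, nor for miR-129-5p, whose scaled sets overlapped. For miR-129-2-3p, the median-of-ratios factor is 1.89 in MI 3, at 1.18 RPM, and 0.625 in sham 2, at 0.675 RPM. For miR-129-1-3p, the factor is 2.77 in MI+CIH 5, at 0.510 RPM, and 0.696 in sham 4, at 0.175 RPM. The antisense arms miR-9b-5p and miR-129b-5p had at most 7 and 8 reads in any library.

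**Figure D4:**
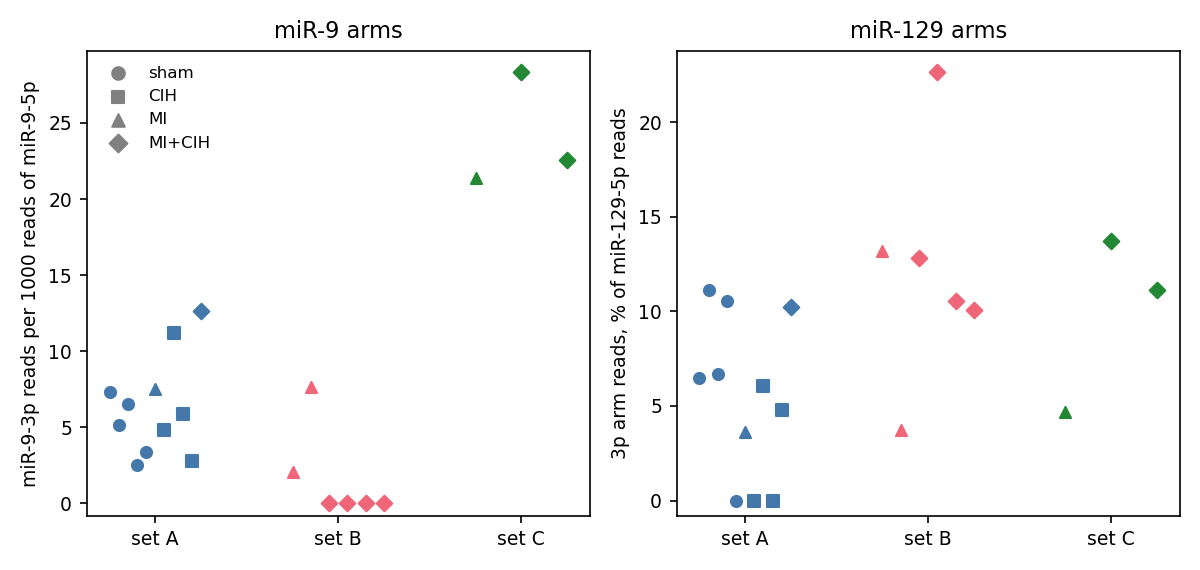
Left, miR-9-3p reads per 1000 reads of miR-9-5p; right, miR-129 3p arm reads as a percentage of miR-129-5p reads; each point is a heart, its shape the group and its place and colour the set. Set C stands at 21.4 to 28.3 on the left, and the 4 MI+CIH hearts of set B lie at 0. In a single one of these hearts a count of 0 allows up to 2.38 to 5.58 per 1000.

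A list of 22 other miRNAs known from neurons and glia was used to check whether the neural label is carried by more than these 2 miRNAs. Only 7 of the 22 passed the filter, and 10 of the other 15 averaged under 1 RPM. The most neuron-specific of them were scarce: miR-124-3p, the dominant miRNA of mature neurons, averaged 0.790 RPM, miR-137-3p 0.247, miR-153-3p 0.175 and the oligodendrocyte miRNA miR-219a-5p 0.255. miR-124-3p was highest in MI 3, at 5.31 RPM, the library that also held most miR-9-5p, and was at 0 in MI+CIH 3, 4 and 7. miR-9-5p averaged 172 RPM, a level that miR-124-3p did not reach in any heart. Which cells the reads of miR-9-5p came from was not tested. The list members with the highest means were miR-128-3p at 432 RPM, miR-218-5p at 364, miR-7a-5p at 75.1 and miR-132-3p at 47.6.

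Of the 7 tested list members, 3 rose and 1 fell in MI+CIH against sham, where 52.2% of all tested miRNAs were called higher and 4.44% lower by limma on RPM. miR-132-3p and miR-132-5p, induced by neuronal activity and also known from hypertrophic heart, rose by 2.27 (SE 0.81, adjusted p = 0.0229) and 1.27 (SE 0.45, adjusted p = 0.0224) on the log2 scale. miR-212-5p, from the same locus as miR-132, rose by 1.55 (SE 0.38, adjusted p = 0.0031). miR-135a-5p fell by 1.64 (SE 0.39, adjusted p = 0.0028). The median of the 7 was 0.82, below the 1.39 of all tested miRNAs. In MI+CIH against CIH 4 rose, the same 3 and miR-218-5p (1.37, SE 0.43, adjusted p = 0.0127), and miR-135a-5p fell again, where 54.7% were called higher and 2.22% lower. The median was 1.28 against 1.51 for all. In the other 4 contrasts limma called 0 of the 7.

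The number of list miRNAs called depended on single hearts and on the scaling. Leaving out sham 3 or MI+CIH 3 left 2 of the list called in MI+CIH against sham, and leaving out MI+CIH 1 gave 6. Directions changed as well. On values scaled by the median of ratios, MI+CIH minus CIH was -0.31 for miR-218-5p, -0.092 for miR-132-5p and -0.14 for miR-212-5p, and 1.17 for miR-132-3p. MI+CIH minus sham was then -0.072 for miR-132-5p, 0.39 for miR-212-5p and 0.94 for miR-132-3p, the last -0.37 with set as a term. On the scaled values limma called 1 of the 7 in MI+CIH against sham and 2 in MI+CIH against CIH, all lower. A term for library set left 0 in both, with only 1 MI+CIH heart, MI+CIH 1, in the set of the sham and CIH hearts. miR-132-3p ran from 5.26 to 13.3 RPM over the hearts of set A, whereas set B ran from 63.8 to 251 RPM and set C from 13.2 to 15.7 RPM. It stayed apart after scaling, at 34.99 to 90.6 in set B and at most 16.2 elsewhere. miR-135a-5p went the other way, with 10.4 ± 4.84 RPM in set A, 2.77 ± 0.75 in set B and 3.87 ± 1.79 in set C. miR-218-5p was highest in set C, at 741 ± 260 RPM. The mean of miR-7a-5p was highest there too, at 146 ± 71.6 RPM, but rested on MI+CIH 7 at 227 RPM. MI+CIH 6 and MI 4 had 91.6 and 119 RPM of it, beside 74.1 to 118 RPM in set B. The neural list thus did not move as 1 block. In RPM every set B heart was above every other heart for 4 of the 22: miR-128-3p, miR-132-3p, miR-132-5p and miR-212-3p. Of the 7 tested list members this holds for 3, beside the 39% of other tested miRNAs given above. The gap was 35.86 RPM (MI 1) against 35.85 (MI+CIH 6) for miR-132-5p. For miR-212-3p it was 2.51 RPM (MI+CIH 4) against 2.46 (MI+CIH 7). After median-of-ratios scaling only miR-132-3p kept this order. Scaled miR-128-3p was at 202 in MI+CIH 5 and 694 in CIH 1. Scaled miR-132-5p was at 13.3 in MI+CIH 5 and 29.3 in MI+CIH 6, and miR-212-3p at 1.09 in MI+CIH 3 and 2.66 in sham 1. The 3p arms miR-132-3p and miR-212-3p share the seed shown here in capitals, which neither miR-9 nor miR-129 has. The called 5p arms, miR-132-5p and miR-212-5p, are not covered by this.

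miR-132-3p: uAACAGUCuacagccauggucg
miR-212-3p: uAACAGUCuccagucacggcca
miR-128-3p: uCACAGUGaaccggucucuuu

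**Figure D5:**
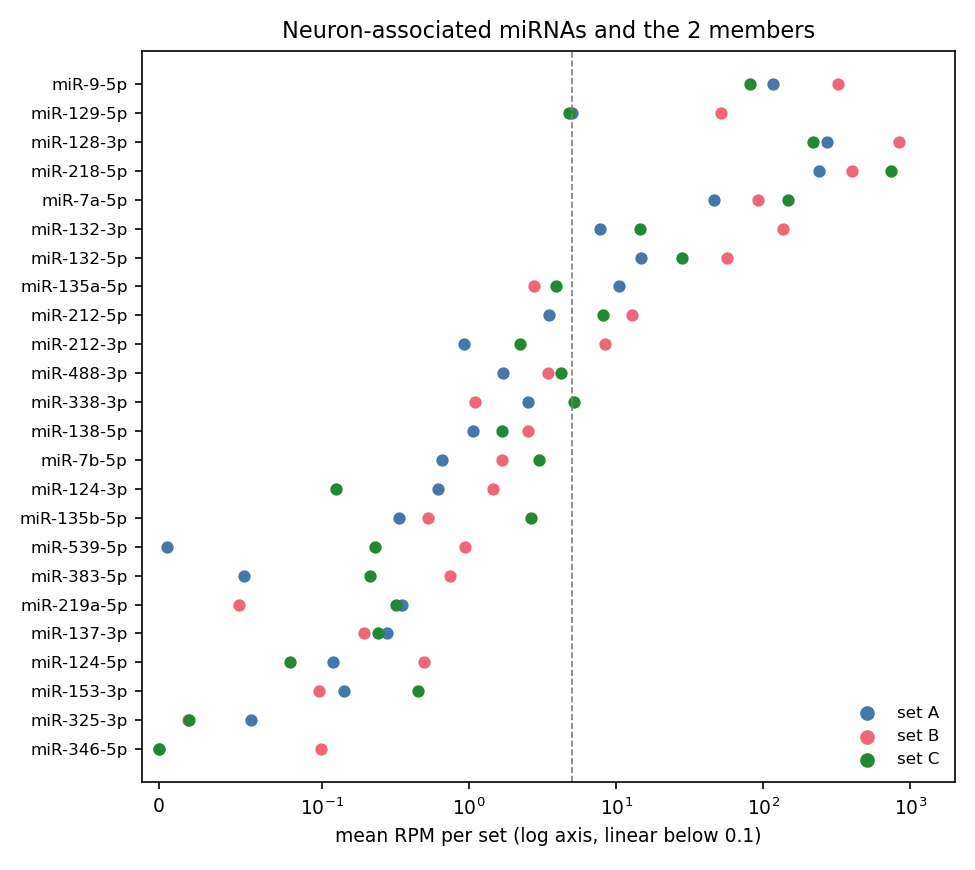
Mean RPM in each library set of 22 miRNAs known from neurons and glia, with miR-9-5p and miR-129-5p in the top rows; the axis is logarithmic and linear below 0.1, and the dashed line marks 5 RPM. miR-132-3p shows 137 RPM in set B against 7.73 in set A, and miR-124-3p stays at 0.124 to 1.45 RPM in all 3 sets.

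The likeness of profiles was measured as the root mean square difference of log2(RPM + 1) over the 20 libraries, each profile centred on its own mean. It is a description, because all profiles share the libraries and their sets. Among 347 tested miRNAs, miR-128-3p was nearest to miR-9-5p at 0.452, where the median miRNA was at 1.17. miR-187-3p followed at 0.475, miR-378a-3p at 0.488, miR-676-5p at 0.509 and miR-28a-5p at 0.524. All 5 had their highest mean in set B, as miR-9-5p had, and 4 of the 5 their lowest in set C, miR-187-3p being the exception. miR-128-3p had 271, 833 and 217 RPM in sets A, B and C, and miR-378a-3p, an abundant miRNA of heart muscle, had 28160, 60650 and 16010 RPM. miR-187-3p was at 7.11, 17.0 and 7.70 RPM.

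The nearest profiles to miR-129-5p were others: miR-151-3p at 0.376, miR-664-3p at 0.410, miR-615-3p at 0.411, miR-409-3p at 0.423 and let-7b-3p at 0.429, with a median of 1.19. They too were low in sets A and C and many times higher in set B, as miR-151-3p with 673, 8285 and 593 RPM and miR-615-3p with 0.457, 20.2 and 0.639 RPM. miR-9-5p ranked 112th in likeness to miR-129-5p, and miR-129-5p ranked 96th to miR-9-5p, at 0.928. The 2 neural miRNAs thus had nearer neighbours elsewhere in the table than in each other.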

How the data were processed

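Small RNA was sequenced from hearts of 20 mice with an NEBNext kit from 3 µg of total RNA, per the labels' protocols. The submitters' processing notes name Bowtie, DESeq 1.8.3 and mm10. The authors deposited 1 table of 1545 miRNAs in which each value is the reads per 1000000 reads of the library (RPM); they call the unit TPM, but 1 read is worth the same for every miRNA. All values (100%) came out as whole reads within 0.05 reads, and those reads served only the alternatives and intervals. Whether counting used strand is not given in the sources used here.

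The groups were compared with limma 3.58.1 (R 4.3.3) on log2(RPM + 1), with a trend, over the 360 miRNAs that reached 5 RPM in 4 libraries or more, all 20 libraries in 1 fit, two-sided, Benjamini-Hochberg adjusted over all 360, threshold 0.05; 12 tested rows repeat another. The fit was tested on simulated data. Alternatives were edgeR 4.0.16 and DESeq2 1.42.0 on recovered reads, other scalings, pseudocounts and filters, the library set as a term, a replicate block and leaving out libraries. Sets came from average-linkage clustering of 349 miRNA profiles. No pair of libraries looked like 1 library deposited as separate samples (lowest chi-square per degree of freedom 160.7).

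The members and lists were chosen with earlier results of these data known. Named were the 4 rows, the other arms of their hairpins, list miRNAs past the threshold or among the 4 highest, the 5 nearest profiles to each, and miR-1a-3p. An epithelial and endocrine list of 9 was also fixed; it summed to 248 to 1182 RPM over all libraries. Replicate numbers did not pair the hearts.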

Additional observations from a re-analysis of the deposited data

Results flagged for a closer look

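Of 20 combinations of group and miRNA looked at among the 2 members and the opposite arms, 1 library stood far from the rest of its group. miR-129-2-3p was at 12.2 RPM in MI+CIH 3, against 0.246 to 3.52 RPM in the other 6 MI+CIH hearts. The gap to the nearest heart was 0.726 of the whole range, over Dixon's critical value of 0.568 for 7 samples. The value rests on 25 reads in a library of set B. Chance alone marks about 1 in 20 groups in this way.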

How the results depend on the processing

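Differences of single miRNAs are in log2 units and counts are miRNAs called. For the 2 members, the differences that moved by more than the spread were mostly those of MI or MI+CIH against sham or CIH. The others were the interaction of miR-9-5p with edgeR and with DESeq2. With median-of-ratios scaling, the difference of miR-9-5p was -0.084 for MI against sham, -1.23 for MI+CIH against sham and -1.28 for MI+CIH against CIH, and that of miR-129-5p 0.37 for MI+CIH against CIH. Limma then called 112 (61 higher, 51 lower) and 97 (49 higher, 48 lower) miRNAs in the MI+CIH contrasts with sham and CIH, of which 1 and 2 of the neural list. With TMM these were 114 and 90, with 1 and 2 of the list, and miR-9-5p was at -0.29, -1.45 and -1.47 and miR-129-5p at 0.15 (sham) and 0.19 (CIH). With library set as a term no miRNA was called in either contrast (0 of the list in both), 2 were called for MI+CIH against MI, miR-9-5p was at -0.67 (sham) and -0.44 (CIH), and miR-129-5p at -0.24 for MI against sham, -0.097 and 0.15. edgeR on recovered reads called 85 and 75 (1 and 2 of the list), with miR-9-5p at -0.13, -1.42, -1.44 and, for the interaction, -1.31. DESeq2 called 39 for MI against sham, 1 for CIH against sham and 133 for MI+CIH against CIH (2 of the list against sham, 3 against CIH), with miR-9-5p at -1.19, -1.21 and, for the interaction, -1.31. With no filter 135 were called for MI+CIH against sham, and 8 of the list against CIH. Without sham 1 and MI 2, 114 were called for MI against sham, with 2 of the list. Without the libraries of set B, a choice made after seeing the data, 125 were called for MI+CIH against sham (2 of the list; 3 against CIH), miR-9-5p was at -0.11, -0.78 and -0.55, and miR-129-5p at -0.12, -0.18 and 0.060. Set B and set were found from these data, and the cause of the differences between sets was not tested. With set as a term, the contrasts with sham and CIH rest on MI 2 and MI+CIH 1.

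Leaving out each library in turn gave 0 to 113 calls for MI against sham (113 without MI 2, 31 without MI+CIH 1), with 0 to 1 of the list, 0 to 3 for MI+CIH against MI (3 without MI+CIH 1, 1 without MI 3) and 2 to 6 of the list for MI+CIH against sham (2 without sham 3 or MI+CIH 3, 6 without MI+CIH 1). Replicate numbers did not pair the hearts: same-numbered hearts of different groups correlated at a median of -0.014 over 25 pairs (from -0.711 to 0.867), and 4 of 20 were closest to their own number. With the replicate number as a block, 218 and 211 miRNAs were called for MI+CIH against sham and CIH. In all, 1237 of 1314 recomputed values kept within the limits and 77 moved. Depth limits the opposite arms, with 0 to 41 reads of miR-9-3p and 0 to 25 of miR-129-2-3p a library, and miR-129-5p, with 30 reads at least.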
